A study of Mus musculus with 32 samples.

Results

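The Obox genes encode oocyte-specific homeobox proteins, a rodent family of DNA-binding factors whose genes lie side by side in 1 cluster. In mouse development some members are stored as maternal transcripts in the oocyte, while others are first transcribed from the embryo's own genome. Members of the family are known for a role in zygotic genome activation, the step at which the early embryo begins its own transcription, which overlaps the clearance of maternal transcripts inherited from the egg. The members described here were Obox1, Obox2, Obox3, Obox5 and Obox6, matched by Ensembl gene identifier to their symbols in mouse GENCODE (build mm10). They are 5 of the 55335 gene rows of each count table. Obox1, Obox2 and Obox5 are called the maternal members below and Obox3 and Obox6 the zygotic members. Another 50 rows carry a symbol that begins with Obox, and all but 2 of them (Obox7 and Obox8) are pseudogenes or other non-coding rows.

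RNA was sequenced from mouse oocytes, early embryos and the embryonic stem cell line AB2.2, in 16 groups of 2 libraries each. Oocytes still in growth were taken at postnatal day 14 (P14) and were all transgenic, for wild-type histone H3.3 (H3.3WT) or for the mutant H3.3K4M, in which the lysine 4 that carries methylation marks is replaced by methionine. MII oocytes, which are mature eggs arrested in the second meiosis, came from untreated wild-type females of 8 weeks or 12 months. Wild-type 2-cell and 4-cell embryos of 6-8-week females, which the titles mark as IVF, were cultured with DMSO (the vehicle), aphidicolin (an inhibitor of DNA replication), cycloheximide (an inhibitor of translation) or MG132 (an inhibitor of the proteasome). Wild-type 2-cell embryos of 12-month females were untreated, so they differ from the DMSO embryos in vehicle as well as in the mother's age. AB2.2 cells, wild type, received DMSO, cycloheximide or MG132. Drug doses, exposure times, the promoter of the transgenes and the number of embryos per library were not given in the labels. No label ties libraries to separate females or cultures, so a p-value here reflects no more than how the 2 libraries of a group varied. In libraries of pooled cells, fewer cells of a kind and less RNA per cell cannot be told apart.

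Library totals lay between 14313718 and 34713159 counts, and repeat rows took between 4.63% and 33.1% of them. Replicates differed by more than sampling noise in every group. Oocyte and 2-cell markers followed the stage labels. The summed level of 10 oocyte markers was 33878 and 33982 CPM (counts scaled to a common library size) in the 8-week MII libraries against 126 and 132 in the DMSO 4-cell libraries. The summed level of 6 markers of 2-cell embryos was 913 and 1118 CPM in the DMSO 2-cell libraries against 65.9 and 63.7 in the 8-week MII libraries. Markers of later stages did not follow the labels throughout. The 6 markers of 4-cell and later embryos summed to 5620.5 and 6316 CPM in DMSO 4-cell libraries. They summed to 10720 and 11087 CPM in H3.3WT growing oocytes, with Pramel6, Pramel7 and Cdx2 at 0. In the same oocytes the 7 markers of embryonic stem cells summed to 10844 and 11204 CPM, with Nanog and Tdgf1 at 0. Both sums were close in each of these libraries, and which genes carried them was not examined. In AB2.2 cells with DMSO the stem cell markers summed to 2666 and 2604 CPM. The AB2.2 libraries were made by another method (poly(A) capture in place of Smart-seq2), so levels in them and in embryos are set side by side without a test.

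All 5 members lie on chromosome 7 of mm10 and are protein coding. Obox2 spans chr7:15388721-15398545 on the plus strand, and Obox1 spans chr7:15388948-15556866 on the same strand, because 1 of its annotated transcripts begins beside the start of Obox2. Obox3 spans chr7:15479825-15639902 on the minus strand, Obox5 chr7:15750131-15759800 on the plus strand and Obox6 chr7:15833241-15839678 on the minus strand. The coding sequences are 612 bases long in Obox1, 453 in Obox2, 1005 in Obox3, 873 in Obox5 and 1041 in Obox6, taking the longest annotated coding sequence of each. With gaps counted as differences, Obox3 and Obox5, a zygotic and a maternal member, had the highest share of identical aligned coding positions, at 81.7%. Obox1 and Obox2 shared 72.9% and Obox2 and Obox6 33.3%. These shares depend on coding length. Obox1 and Obox2 matched at 446 positions, where Obox2 has 453 bases. Obox3 and Obox5 matched at 821 positions, where Obox5 has 873 bases. Which pair is closest therefore depends on how gaps are counted.

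The 60 coding bases on which the members differ least are shown because they let a reader see how alike the family is where reads would be hardest to place. They are read from the GENCODE transcripts, 5′ to 3′ on each gene's own strand, and capitals mark bases that differ from Obox1. Each stretch is exonic and coding, and lies at chr7:15555276-15555335 in Obox1, chr7:15396959-15397018 in Obox2, chr7:15627165-15627224 in Obox3, chr7:15757651-15757710 in Obox5 and chr7:15834749-15834808 in Obox6.
Obox1: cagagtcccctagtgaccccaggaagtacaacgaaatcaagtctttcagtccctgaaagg
Obox2: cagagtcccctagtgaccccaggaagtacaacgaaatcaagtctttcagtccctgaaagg
Obox3: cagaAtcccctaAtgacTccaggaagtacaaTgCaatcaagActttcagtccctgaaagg
Obox5: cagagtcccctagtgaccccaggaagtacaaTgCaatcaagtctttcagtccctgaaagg
Obox6: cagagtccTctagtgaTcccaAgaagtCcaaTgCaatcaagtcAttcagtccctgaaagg
Over these bases Obox2 had 0 differences from Obox1, Obox5 had 2, Obox3 had 6 and Obox6 had 7.

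Shared sequence bears on how each count can be read, since how the authors' counting treated reads that match several genes is not given in the sources used here. Of all stretches of 100 bases in the annotated transcripts, 42.3% of those of Obox1 also occurred in another gene, in every case Obox2. The share was 47.2% in Obox2, 8.89% in Obox3, 1.75% in Obox5 and 0 in Obox6. The Obox3 stretches were shared with Obox3 pseudogenes and those of Obox5 with Obox7. Counts of Obox1 against Obox2, and of Obox3 against its pseudogenes, are therefore uncertain where reads could be placed on either. Levels of Obox6 had no such limit at this length.

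Promoter windows of 250 bases before to 50 bases after the start site were matched in the RefSeq table (GRCm38.p6) for 4 of the 5 members, all except Obox6. Obox1 and Obox5, both maternal, shared an unbroken run of 82 bases upstream of their start sites. Obox1 and Obox2 shared a run of 153 bases, although it ends 98 bases before the start site of Obox1 and directly at that of Obox2. The longest run of the zygotic member Obox3 with Obox2 was 8 bases, and that of Obox3 with Obox5 alone was not searched. Obox3 shared a run of 25 bases with both Obox1 and Obox5. It is the longest run common to these 3 genes within the 250 bases upstream, and is shown 5′ to 3′ on each gene's strand.
Obox1, Obox3 and Obox5: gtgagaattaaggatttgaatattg
It lies at chr7:15547159-15547183 in Obox1, chr7:15639862-15639886 in Obox3 (minus strand) and chr7:15750260-15750284 in Obox5. In GENCODE it falls in an exon, outside coding sequence, of 1 of the 6 Obox1, 1 of the 8 Obox3 and 1 of the 3 Obox5 transcripts, namely those that begin upstream of the RefSeq start site. On both strands, the E-box motif CANNTG occurred in the windows of Obox1, Obox2 and Obox5 and not in that of Obox3, and in 72.3% of all 32851 windows. The TATA box, searched as TATAAA, occurred in the window of Obox3 alone among the 4, and in 13.6% of all windows. In Obox3 these letters lie at -189 to -184 from the start site. The bicoid-type homeodomain core, searched as TAATCC, also occurred in Obox3 alone, and in 7.06% of all windows. A match is a description of these letters and not of binding.

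The members fell into distinct patterns over the 16 groups. The maternal members were highest in MII oocytes, high in growing oocytes and in 2-cell embryos, and lower in every 4-cell library than in any oocyte or 2-cell library. Obox3 was highest in DMSO 2-cell embryos and was nearly as high in 4-cell embryos under cycloheximide. Obox6 was highest in DMSO 4-cell embryos. In embryonic stem cells, Obox1, Obox2, Obox3 and Obox5 held at most 1 count in any library, whereas Obox6 held between 9 and 28 counts per library.

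**Figure D1:**
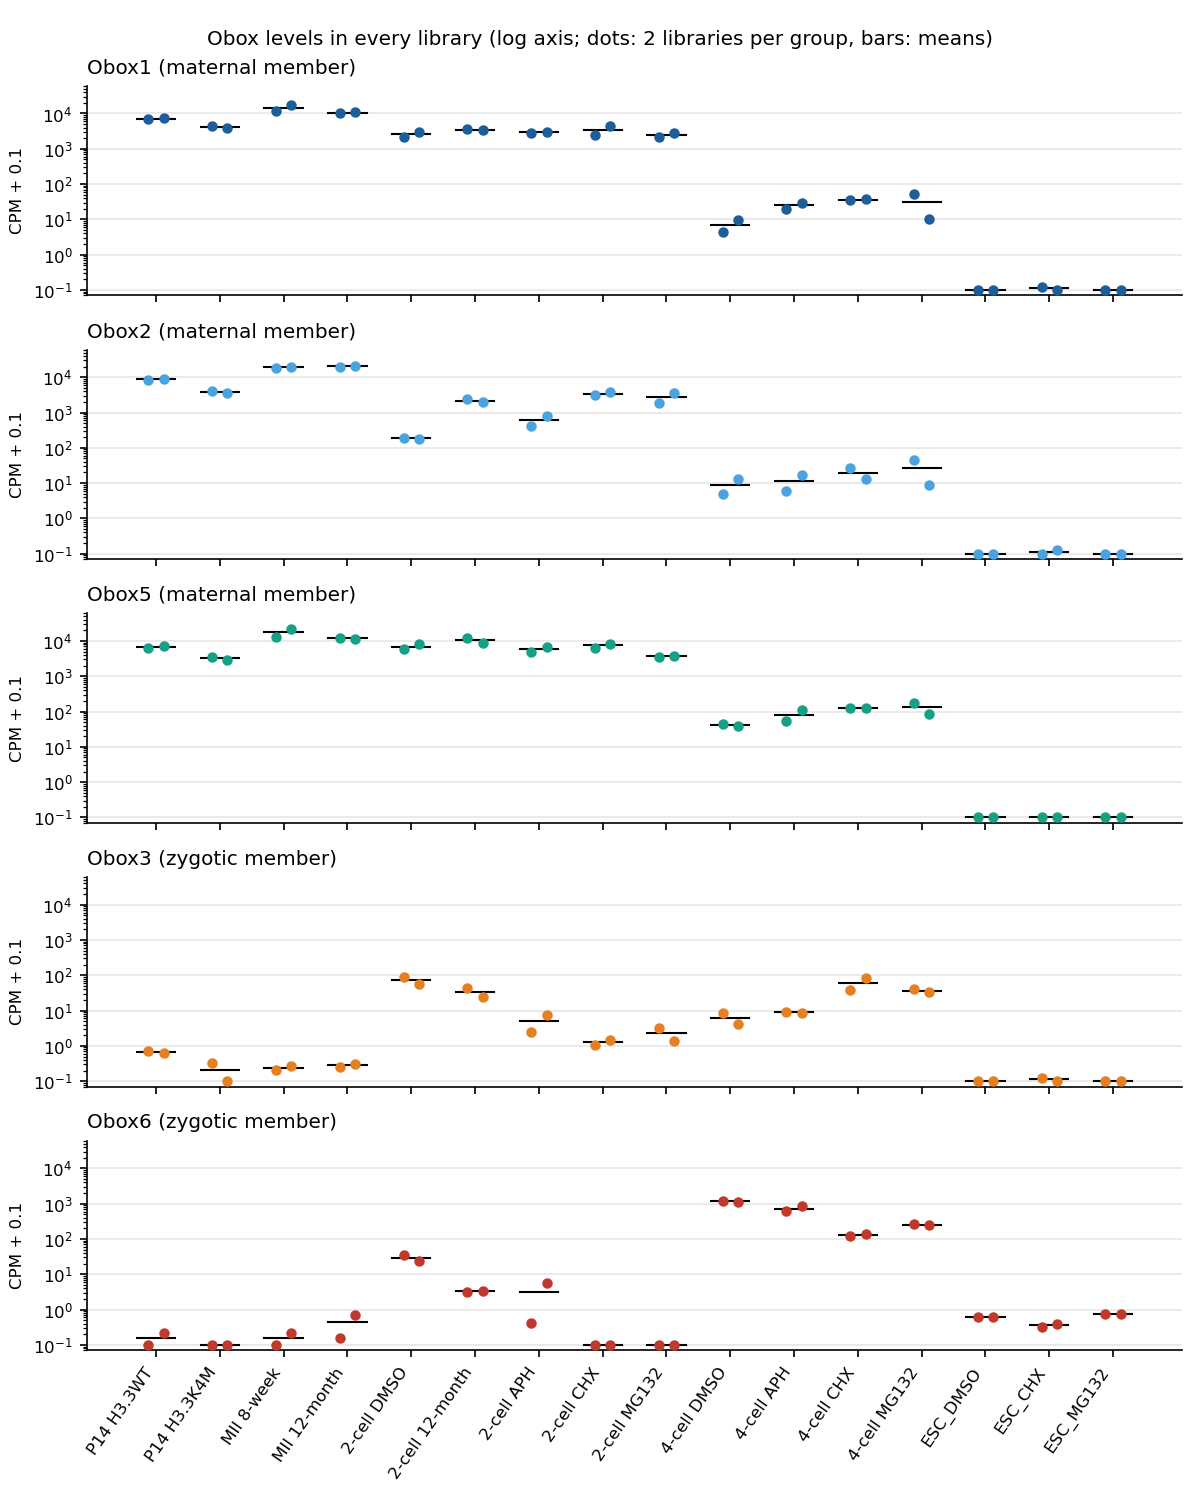
Level of each member in every library, as CPM plus 0.1 on a log axis, over the 16 groups on the horizontal axis. Dots are the 2 libraries of a group and bars their mean. Obox1, Obox2 and Obox5 are highest in MII oocytes, Obox2 has 2-cell group means from 185 to 3412 CPM, Obox3 has its highest mean in DMSO 2-cell embryos and Obox6 in DMSO 4-cell embryos, at 1172 and 1143 CPM.

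In the order of group means, neighbouring groups were separated in both libraries in 7 of 15 steps for Obox1, 7 for Obox2, 4 for Obox3, 8 for Obox5 and 7 for Obox6. The mean of Obox1 fell in the order 8-week MII oocytes, 12-month MII oocytes, H3.3WT oocytes and H3.3K4M oocytes with no overlap between neighbours, and the means of the 5 groups of 2-cell embryos came next and overlapped. Obox2 differed from Obox1 in this respect. Its 2-cell groups ranged from a mean of 185 CPM in DMSO embryos to 3412 CPM in cycloheximide embryos. Over the 16 group means of log2(CPM + 1), Pearson's r was 0.98 between Obox1 and Obox2, 0.99 between Obox1 and Obox5, 0.95 between Obox2 and Obox5, and 0.69 between Obox3 and Obox6. Between a maternal and a zygotic member it lay between -0.42 for Obox2 with Obox6 and 0.19 for Obox3 with Obox5. These are descriptions over groups that share stage and library method, given without a p-value.

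In growing oocytes the maternal members were lower with H3.3K4M than with H3.3WT. Obox1 stood at 6809 and 7567 CPM in the H3.3WT libraries and at 4334 and 3852 CPM in the H3.3K4M libraries. Obox2 stood at 8498 and 8873 CPM with H3.3WT and at 4154 and 3544 CPM with H3.3K4M. Obox5 stood at 6346 and 7010.5 CPM with H3.3WT and at 3535 and 2924 CPM with H3.3K4M. The 2 groups did not overlap for any of the 3 genes. All 3 maternal members fell (edgeR quasi-likelihood test, Benjamini-Hochberg adjusted p under 0.05), where 22.4% of all genes tested were called. The log2 fold change was -0.80 ± 0.20 (SE) for Obox1 (adjusted p = 0.0113), -1.16 ± 0.20 for Obox2 (adjusted p = 0.00125) and -1.03 ± 0.20 for Obox5 (adjusted p = 0.00288). The call of Obox1 was lost without either H3.3WT library, at adjusted p = 0.0878 without replicate 1 and 0.148 without replicate 2.

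The zygotic members were near 0 in these oocytes and were not tested. Obox3 held 21 counts over the 2 H3.3WT libraries and 3 over the 2 H3.3K4M libraries, a ratio of 6.35 (95% counting interval 1.90 to 33.2, which covers counting error only). Obox6 held 2 counts with H3.3WT and 0 with H3.3K4M. Of the other Obox rows, 4 were tested and 3 fell (median log2 fold change -1.88). Among them Obox7 fell most. It fell from 1132 and 1208 CPM with H3.3WT to 29.2 and 35.4 CPM with H3.3K4M, a log2 fold change of -5.17 ± 0.20 (edgeR adjusted p = 5.29e-08). The 10 oocyte markers summed to 68975 and 79793 CPM with H3.3WT and to 80583 and 69727 CPM with H3.3K4M, so the marker sums of the 2 groups overlapped while the maternal members did not. All 41 genes of a list of oocyte transcription factors and maternal genes were tested in this comparison. Of these, 7 rose and 7 fell, with a median log2 fold change of 0.00, as over all genes tested. Of 29 tested regulators of genome activation and 2-cell genes, 1 rose and 10 fell (median -0.36). Of 12 tested homeobox genes of oocyte and early embryo, 2 rose and 5 fell (median -0.22).

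From growing to MII oocytes the maternal members rose. In the 8-week MII libraries Obox1 stood at 11393 and 17799 CPM, Obox2 at 18754 and 19353 CPM and Obox5 at 13096 and 21753 CPM. Each library lay above both H3.3WT libraries. Against H3.3WT growing oocytes all 3 rose, where 61.8% of all genes were called, by a log2 fold change of 1.02 ± 0.26 for Obox1 (edgeR adjusted p = 0.00895), 1.12 ± 0.20 for Obox2 (0.00142) and 1.38 ± 0.28 for Obox5 (0.00304). The call of Obox1 was lost without either H3.3WT library. This comparison sets transgenic against wild-type oocytes, so stage and genotype cannot be told apart in it.

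Per kilobase of exon, which allows levels of different genes to be set beside each other, the 8-week MII oocytes held 11576 ± 257 CPM per kb of Obox2 (SD, n = 2), 8158 ± 2866 of Obox5 and 7682 ± 2384 of Obox1. Obox3 and Obox6 were at 0.044 and 0.043 CPM per kb, from 5 and 2 counts in all. The 5 members took between 2.86% and 3.60% of all counts in the 4 MII libraries.

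The age of the female made no difference to the maternal members that this design could call. In 12-month MII oocytes Obox1 stood at 10409.6 and 10703 CPM, Obox2 at 20041 and 20193 CPM and Obox5 at 12284 and 11619 CPM. Obox1 and Obox5 lay below both 8-week libraries and Obox2 above both. In edgeR's quasi-likelihood test 0 of the 3 tested members were called, where 0.802% of all genes were, 0 had an unadjusted p under 0.05, and DESeq2 called 0. Log2 fold changes were -0.51 for Obox1 (95% interval -1.18 to 0.16), 0.05 for Obox2 (-0.48 to 0.58) and -0.59 for Obox5 (-1.29 to 0.11). With 1 library left out, the log2 fold change ranged from -0.85 to -0.09 for Obox1 and from -0.96 to -0.12 for Obox5. The lowest values came without replicate 1 of the 8-week group. That fit leaves 1 library in the 8-week group, so its spread comes from the 12-month libraries alone. Obox6 held 13 counts over the 12-month libraries and 2 over the 8-week libraries, a ratio of 6.06 (95% counting interval 1.37 to 55.3), with 0.625 CPM in 1 12-month library and 0.0529 CPM in the other.

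Between MII oocytes and DMSO 2-cell embryos the maternal members fell by very unequal amounts and both zygotic members rose. Obox1 stood at 2206 and 3012 CPM in the DMSO 2-cell libraries, Obox2 at 188 and 183 CPM and Obox5 at 5765 and 8024 CPM. All 3 lay below every MII library of the same gene. Of the zygotic members, Obox3 stood at 90.8 and 58.3 CPM and Obox6 at 35.5 and 23.3 CPM, above every oocyte library. All 5 members passed the test, where 20.2% of all genes were called. Against 8-week MII oocytes the log2 fold change was -2.51 ± 0.38 for Obox1 (edgeR adjusted p = 0.00171), -6.70 ± 0.46 for Obox2 (4.26e-05) and -1.36 ± 0.31 for Obox5 (0.0132). It was 8.98 ± 0.70 for Obox3 (6.12e-05), and the counts of Obox6 gave a ratio of 528 (95% counting interval 146 to 4362, edgeR adjusted p = 0.000151), against 2 counts in the MII libraries. The call of Obox5 was lost in a fit on these 2 groups alone (0.0612), without DMSO replicate 1 (0.091) and without 8-week MII replicate 2 (0.0564).

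The unequal loss of Obox2 also shows as a ratio between members within each library, which scaling between libraries does not touch. On the log2 scale per kb, Obox2 over Obox5 was 0.89 and 0.21 in the 8-week MII libraries and 1.08 and 1.17 in the 12-month ones, and it was -4.56 and -5.08 in the DMSO 2-cell libraries. Every other 2-cell library lay above the DMSO 2-cell libraries. The ratio was -1.99 and -1.73 in the 12-month embryos, -3.16 and -2.73 under aphidicolin, -0.72 and -0.78 under cycloheximide, and -0.61 and 0.32 under MG132. Obox2 and Obox1 share exon sequence, so a part of the reads of 1 could be counted with the other, and how much was not tested. Obox2 shares its 100-base stretches with Obox1, not with Obox5.

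By the DMSO 4-cell stage the maternal members and Obox3 were low, and Obox6 was the main member. Obox1 was left at 4.41 and 9.46 CPM, Obox2 at 4.94 and 12.7 CPM and Obox5 at 44.7 and 37.6 CPM. Obox3 stood at 8.32 and 3.98 CPM and Obox6 at 1172 and 1143 CPM. For each of the 5 members, the DMSO 4-cell libraries did not overlap the DMSO 2-cell libraries. All 5 passed the test, where 49.0% of all genes were called, with 4 lower and 1 higher. The log2 fold change from 2-cell to 4-cell DMSO embryos was -8.38 ± 0.50 for Obox1 (edgeR adjusted p = 2.18e-06), -4.22 ± 0.41 for Obox2 (2.35e-05), -7.21 ± 0.41 for Obox5 (1.75e-06), -3.43 ± 0.50 for Obox3 (0.000292) and 5.47 ± 0.59 for Obox6 (4.29e-05). The 2 zygotic members thus moved in opposite directions at this step, and all 5 calls held with any 1 library left out.

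**Figure D2:**
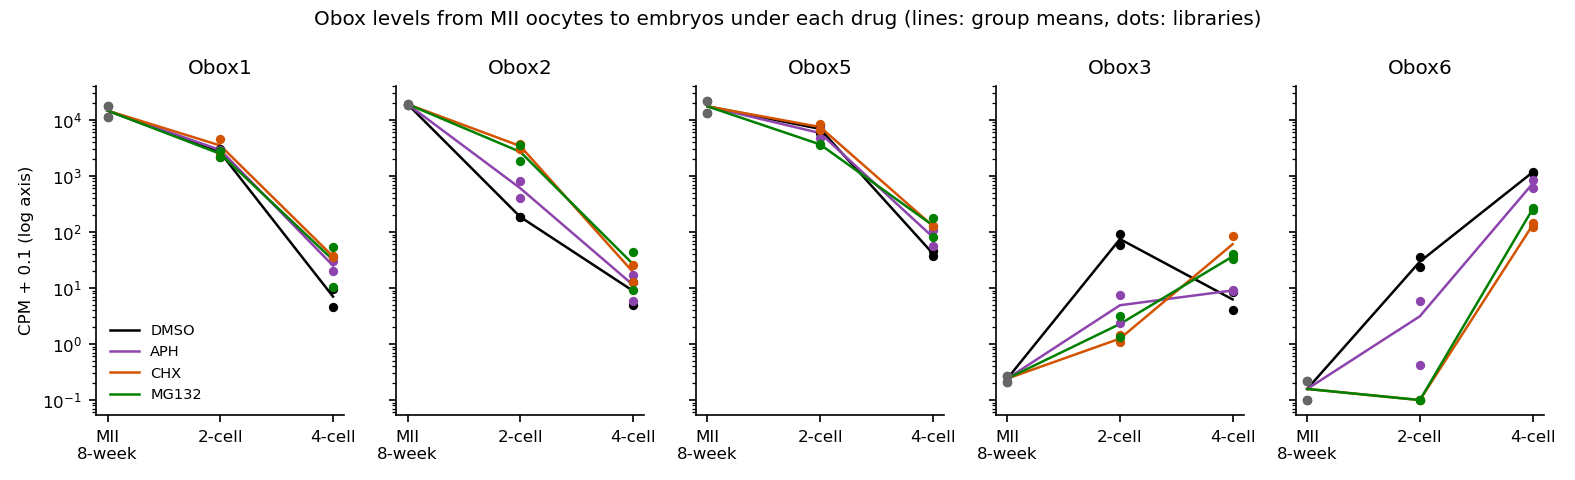
Level of each member as CPM plus 0.1 on a log axis in 8-week MII oocytes, 2-cell and 4-cell embryos, with 1 line per drug through the group means and dots for libraries. The lines for Obox1 and Obox5 lie close together at the 2-cell stage, those of Obox2, Obox3 and Obox6 lie apart, and Obox6 is at 0 in the 2-cell libraries under cycloheximide and MG132.

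The zygotic share of the 5 members' counts per kb summarises this order. It was 1.36% and 0.649% in the DMSO 2-cell libraries and 97.1% and 96.6% in the DMSO 4-cell libraries. In 4-cell embryos under aphidicolin it was 92.0% and 89.2%, under cycloheximide 51.7% and 60.3%, and under MG132 60.1% and 79.4%. The share was lower in each drug-treated 4-cell library than in both DMSO libraries.

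**Figure D3:**
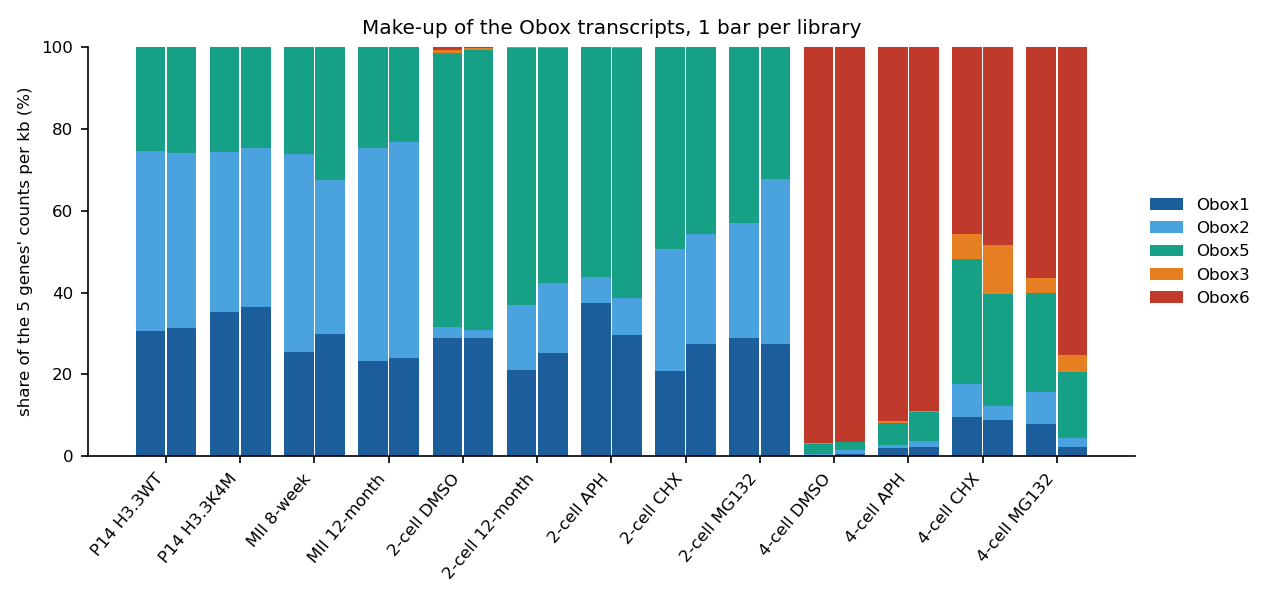
Share of each member in the 5 members' counts per kb, in percent, with 1 bar for each oocyte and embryo library. Oocytes and 2-cell embryos hold mainly Obox1, Obox2 and Obox5, DMSO 4-cell embryos hold mainly Obox6 (zygotic share 97.1% and 96.6%), and 4-cell embryos under cycloheximide and MG132 keep a larger maternal share.

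In 2-cell embryos Obox2 was higher and both zygotic members were lower under cycloheximide and MG132 than with DMSO. Obox1 and Obox5 passed the test against DMSO under none of the 3 drugs. Under cycloheximide Obox1 stood at 2456 and 4512 CPM and Obox5 at 6509 and 8425 CPM, and the libraries of both genes overlapped those of DMSO embryos. Obox2 stood at 3045 and 3778 CPM, above the 188 and 183 CPM of DMSO embryos. Obox3 stood at 0.966 and 1.33 CPM, and Obox6 held 0 counts in both libraries. Cycloheximide raised Obox2 and lowered Obox3 and Obox6, 3 of 5 members, where 24.0% of all genes were called. On the log2 scale, the fold change was 4.19 ± 0.43 for Obox2 (edgeR adjusted p = 0.000119) and -6.03 ± 0.70 for Obox3 (0.000214). Obox6 was at least 474-fold lower than with DMSO, taking 3 counts over the group as the limit that 0 counts allow (edgeR adjusted p = 0.00112). Obox1 did not pass the test at 0.40 (95% interval -0.23 to 1.04), nor did Obox5 at 0.10 (-0.51 to 0.72).

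Under MG132 Obox2 was likewise higher and the zygotic members lower. Obox1 stood at 2149 and 2792 CPM, Obox2 at 1812 and 3566 CPM and Obox5 at 3593 and 3701 CPM. Obox3 stood at 3.10 and 1.26 CPM and Obox6 held 0 counts in both libraries. Obox2 lay above and Obox3, Obox5 and Obox6 below both DMSO libraries, and Obox1 overlapped them. MG132 called 3 of 5 members, where 9.77% of all genes were called. Obox2 rose by a log2 fold change of 3.77 ± 0.42 (edgeR adjusted p = 0.000489), Obox3 fell by 5.21 ± 0.67 on the log2 scale (0.000965) and Obox6 was at least 489-fold lower (0.00282). Obox5 was at -1.0 (95% interval -1.62 to -0.38) with an adjusted p of 0.0694, and it was called lower with DESeq2 size factors (0.048), with DESeq2 (0.00585) and with a filter of 5 CPM (0.0371). Between cycloheximide and MG132, Obox5 was higher under cycloheximide by 1.10 ± 0.32 (edgeR adjusted p = 0.0492), the only member called where 9.5% of all genes were. That call was lost in a fit on the 2 groups alone, with library sizes from gene rows only, and without cycloheximide replicate 2 or either MG132 library. The difference of Obox2 between these drugs was 0.42 with a 95% interval of -0.33 to 1.16.

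Under aphidicolin Obox3 was lower than with DMSO at the 2-cell stage. Obox2 stood at 411 and 797 CPM, Obox3 at 2.31 and 7.33 CPM and Obox6 at 0.321 and 5.73 CPM, with no overlap with DMSO embryos for any of these 3 genes. Obox1, at 2832 and 2956 CPM, and Obox5, at 4765 and 6867 CPM, overlapped the DMSO libraries. Of the 5 members only Obox3 passed the test, at -3.96 ± 0.63 (edgeR adjusted p = 0.0381), where 0.201% of all genes were called. Its call was lost in a fit on the 2 groups alone (0.123), without aphidicolin replicate 1 (0.165) and without DMSO replicate 1 (0.0971). Obox2 was at 1.68 (95% interval 0.91 to 2.44, adjusted p = 0.133) and Obox6 at -3.27 (-5.16 to -1.38, adjusted p = 0.275). DESeq2 and a fit without a low-count filter called both of these, and edgeR called Obox6 without aphidicolin replicate 2, at -6.51 (adjusted p = 0.00962).

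Set against the other drugs directly, aphidicolin embryos held less Obox2 than cycloheximide embryos (log2 fold change -2.51 ± 0.40, edgeR adjusted p = 0.00192) and than MG132 embryos (-2.09 ± 0.40, adjusted p = 0.0247). Obox6 was at least 62.8-fold higher than under cycloheximide (adjusted p = 0.0079) and at least 64.8-fold higher than under MG132 (adjusted p = 0.0411). Aphidicolin replicate 2 carried 180 of the 185 counts behind both limits, which fall to 5.12-fold and 5.29-fold without it. Obox3 was higher than under cycloheximide by 2.07 ± 0.62 (adjusted p = 0.037), and against MG132 it was at 1.25 (95% interval 0.09 to 2.42, adjusted p = 0.414). In all, 3 of 5 members differed from cycloheximide where 18.1% of all genes did, and 2 of 5 from MG132 where 1.64% did. Against cycloheximide the call of Obox3 was lost in a fit on the 2 groups alone (0.134), without aphidicolin replicate 2 (0.98 on the log2 scale, 0.418) and without either cycloheximide library, and that of Obox6 without cycloheximide replicate 1 (0.0507). The MG132 calls were both lost in a fit on the 2 groups alone and without MG132 replicate 2, and 1 of the 2 was lost without each other library of that comparison.

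Measured against MII oocytes, the maternal members fell in every drug group. The log2 fold change of Obox2 was -6.70 with DMSO, -4.95 with aphidicolin, -2.86 with MG132 and -2.48 with cycloheximide, and that of Obox1 lay between -2.60 and -2.07 in these 4 groups. That of Obox5 lay between -2.30 with MG132 and -1.22 with cycloheximide. Obox3 was higher than in MII oocytes in all 4 groups, by 8.98 with DMSO, 5.09 with aphidicolin, 3.85 with MG132 and 2.99 with cycloheximide. Its reference is near the floor, at 5 counts over the 8-week MII libraries. Cycloheximide embryos held 55 counts of Obox3, at 0.966 and 1.33 CPM, against 0.611 and 0.547 CPM in H3.3WT growing oocytes. These comparisons share the 8-week MII libraries. Each of these log2 fold changes passed the edgeR test in its own fit, at an adjusted p of 0.0482 or lower. With aphidicolin, cycloheximide and MG132, 11.2%, 11.0% and 8.61% of all genes were called. Obox6 held 0 counts under cycloheximide and MG132 and was not called there. Under aphidicolin Obox6 was called higher, from 185 counts against 2. The 4 cycloheximide calls fell to between 0 and 2 with 1 library left out. The 5 aphidicolin calls fell to 2 without 8-week MII replicate 2, and to 3 without either aphidicolin library. The 4 MG132 calls fell to 2 without MG132 replicate 1.

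Other genes of the same stages moved with the members. The 10 oocyte markers summed to 4202 and 4769 CPM in DMSO 2-cell embryos, 21511 and 31161 CPM under cycloheximide, 9304 and 6272 CPM under MG132 and 6514 and 4773 CPM under aphidicolin, with none of the 10 at 0 in any of these groups. The 6 markers of 2-cell embryos summed to 913 and 1118 CPM with DMSO, 12.0 and 33.7 CPM under cycloheximide, 46.2 and 62.4 CPM under MG132 and 79.7 and 172 CPM under aphidicolin, with only BB287469 at 0, under cycloheximide. Their part in the results for Obox2, Obox3 and Obox6 was not tested. Of 40 tested oocyte transcription factors and maternal genes, 23 rose and 6 fell under cycloheximide (median log2 fold change 1.35, against -0.26 over all genes) and 17 rose and 0 fell under MG132 (1.33 against -0.07). H1foo, the oocyte linker histone, rose by 5.38 ± 0.73 under cycloheximide (edgeR adjusted p = 0.000484). Of 53 tested regulators of genome activation and 2-cell genes, 7 rose and 34 fell under cycloheximide (median -3.30), and 2 rose and 30 fell under MG132 (-4.26).

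The other Obox rows, pseudogenes and the coding genes Obox7 and Obox8, gave a further view of the cluster. Of the 27 tested, 0 rose and 19 fell under cycloheximide at the 2-cell stage (median -7.30), where 24.0% of all genes were called. Under MG132 0 rose and 16 fell (-6.63), where 9.77% of all genes were called, and under aphidicolin 1 fell (-2.67), where 0.201% were. Of the 29 such rows with at least 10 counts in 2 libraries, 10 were highest in DMSO and 9 in 12-month 2-cell embryos. Rows that pass the count filter through those groups can hardly rise under a drug. The direction of these counts is therefore no separate result, and the share over all genes is no like background. Obox7 and Obox8 were among the rows that fell under cycloheximide (edgeR adjusted p = 0.0297 and 0.00631). The 39 Obox4 pseudogene rows summed to 104 and 36.1 CPM in DMSO 2-cell embryos and to 0 and 0.0416 CPM under cycloheximide. The 8 Obox3 pseudogene rows summed to 193 and 99.4 CPM with DMSO and to 2.23 and 7.04 CPM under cycloheximide. These rows were lower where Obox3 itself was lower. Obox3 shares sequence with some of these rows, so the readouts are not independent.

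**Figure D4:**
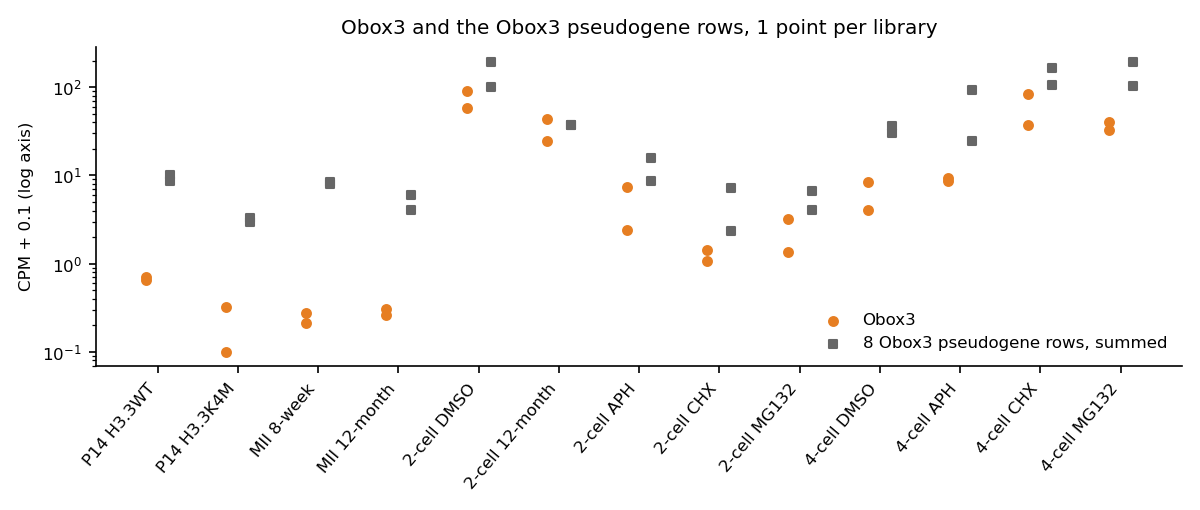
Level of Obox3 (circles) and summed level of the 8 Obox3 pseudogene rows (squares) as CPM plus 0.1 on a log axis, with 1 point per oocyte or embryo library. Both have their 3 highest group means in DMSO 2-cell embryos and in 4-cell embryos under cycloheximide and MG132, and both are low in oocytes and in 2-cell embryos under the drugs.

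The 2-cell embryos of 12-month females also differed from DMSO embryos mainly in Obox2. It stood at 2336 and 2009 CPM, above the 188 and 183 CPM of DMSO embryos of 6-8-week females. Obox1 stood at 3602 and 3375 CPM and Obox5 at 12072 and 8675 CPM, both above the DMSO libraries. Obox3 stood at 43.6 and 24.7 CPM and Obox6 at 3.15 and 3.28 CPM, both below them. Obox2 alone passed the test, at 3.59 ± 0.42 (edgeR adjusted p = 0.00167), where 1.21% of all genes were called, and it passed with each library left out in turn. Obox6 was at -3.15 (95% interval -5.03 to -1.27, adjusted p = 0.185) and Obox3 at -1.09 (-2.18 to 0.01, adjusted p = 0.407). DESeq2, a fit without a low-count filter and a fit on the 2 groups alone each called 2 members. The oocyte markers summed to 8438 and 8560 CPM and the 2-cell markers to 580 and 540 CPM in the 12-month embryos, against 4202 and 4769 and against 913 and 1118 CPM in DMSO embryos, and their part was not tested. The mother's age and the absence of DMSO cannot be told apart here.

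From 12-month MII oocytes to 12-month 2-cell embryos, 4 of 5 members passed the test, where 12.6% of all genes did. Obox1 fell by 1.56 ± 0.37 on the log2 scale (edgeR adjusted p = 0.0218) and Obox2 fell by 3.17 ± 0.39 (0.000777). Obox3 rose by 7.54 ± 0.66 (0.00014) and Obox6 by 3.25 ± 0.66 (0.0107). Obox5 was at -0.16 (95% interval -0.77 to 0.44). The call of Obox1 was lost when any of the 4 libraries was left out. The difference of this step between the ages was itself tested, and in edgeR's test 0 of 5 members were called, where 0.0174% of all genes were. Of the 5, 3 had an unadjusted p under 0.05 (Obox2, Obox5 and Obox6), and DESeq2 called 2. For Obox2 the difference was 3.53 ± 0.52 (edgeR adjusted p = 0.109), and it was called in a fit on these groups alone (0.0188) and without 8-week MII replicate 1 (0.0453).

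In 4-cell embryos Obox3 was higher and Obox6 lower under cycloheximide and MG132 than with DMSO. Under cycloheximide Obox3 stood at 37.4 and 83.3 CPM, above the 8.32 and 3.98 CPM of DMSO embryos. Obox6 stood at 120.2 and 143 CPM, below 1172 and 1143 CPM. Under MG132 Obox3 stood at 40.0 and 32.9 CPM and Obox6 at 265 and 243 CPM. Neither gene overlapped the DMSO libraries under either drug.

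Of the maternal members, Obox1 and Obox5 rose under cycloheximide at this stage, and none of the 3 passed the test under MG132. Under cycloheximide Obox1 stood at 35.9 and 36.8 CPM, Obox2 at 25.8 and 12.7 CPM and Obox5 at 128 and 128 CPM. Under MG132 Obox1 stood at 52.8 and 10.3 CPM, Obox2 at 44.6 and 8.96 CPM and Obox5 at 179.8 and 82.6 CPM. All of these lay far below every 2-cell library of the same gene. Obox1 and Obox5 did not overlap the DMSO libraries, at 4.41 and 9.46 CPM and at 44.7 and 37.6 CPM, whereas Obox2 overlapped them under MG132.

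Cycloheximide called 4 of 5 members in 4-cell embryos, where 19.0% of all genes were called. As log2 fold changes, the differences were 3.31 ± 0.50 for Obox3 (edgeR adjusted p = 0.003), -3.13 ± 0.24 for Obox6 (0.000282), 2.40 ± 0.68 for Obox1 (0.0395) and 1.65 ± 0.39 for Obox5 (0.0201), and Obox2 was at 1.14 (95% interval -0.42 to 2.71). Without DMSO replicate 1 only Obox3 and Obox6 were called. The call of Obox1 was also lost without either cycloheximide library, and that of Obox5 without DMSO replicate 2. MG132 called 2 of 5, where 7.38% of all genes were called, with 2.42 ± 0.48 for Obox3 (0.0217) and -2.33 ± 0.23 for Obox6 (0.00286). Obox5 was at 1.5 (95% interval 0.74 to 2.26) with an adjusted p of 0.0516, and DESeq2 (0.00262), a filter of 5 CPM (0.0196) and a fit without a filter (0.000432) called it higher. The call of Obox3 under MG132 was lost without DMSO replicate 2 (0.101) and without MG132 replicate 1 (0.0518), while that of Obox6 held.

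Aphidicolin 4-cell embryos stayed nearer to DMSO embryos. Obox3 stood at 9.24 and 8.62 CPM and Obox6 at 611 and 839 CPM. Obox1 stood at 20.1 and 29.8 CPM, Obox2 at 5.85 and 16.7 CPM and Obox5 at 55.4 and 107 CPM. Each of these except Obox2 lay outside the range of the DMSO libraries. In edgeR's test 0 of 5 members were called, where 0.0% of all genes were. Of the 5, 3 had an unadjusted p under 0.05 (Obox1, Obox5 and Obox6), and DESeq2 called 1. The log2 fold change of Obox6 was -0.76 (95% interval -1.19 to -0.33, edgeR adjusted p = 0.556).

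Compared with each other at the 4-cell stage, aphidicolin embryos held more Obox6 than cycloheximide embryos (log2 fold change 2.37 ± 0.23, edgeR adjusted p = 0.000759) and than MG132 embryos (1.57 ± 0.22, adjusted p = 0.0095). They held less Obox3 than cycloheximide embryos (-2.84 ± 0.49, adjusted p = 0.00628), and against MG132 Obox3 was at -1.96 (95% interval -2.89 to -1.03, adjusted p = 0.0506). In all, 2 of 5 members were called against cycloheximide where 15.9% of all genes were, and 1 of 5 against MG132 where 5.17% were. The MG132 call was lost in a fit on the 2 groups alone (0.0792). Between cycloheximide and MG132, edgeR called 0 of 5 where 10.1% of all genes were called. Obox6 alone had an unadjusted p under 0.05, and DESeq2 called 1. Obox6 was at -0.79 (95% interval -1.22 to -0.36, edgeR adjusted p = 0.0528).

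Set against the earlier stage, Obox3 in 4-cell embryos under cycloheximide or MG132 did not pass the test against DMSO 2-cell embryos. The cycloheximide libraries overlapped the DMSO 2-cell libraries, at 90.8 and 58.3 CPM, while both MG132 libraries lay below them. The log2 fold change from DMSO 2-cell embryos was -0.26 (95% interval -1.37 to 0.84) under cycloheximide and -0.96 (-2.07 to 0.16) under MG132. Under aphidicolin it was -2.98 ± 0.61 (edgeR adjusted p = 0.000707). Obox6 was higher than in DMSO 2-cell embryos in all 3 drug groups, by 4.70 ± 0.81 under aphidicolin, 3.18 ± 0.76 under MG132 and 2.20 ± 0.73 under cycloheximide. Its cycloheximide call was lost with any of the 4 libraries left out (adjusted p between 0.0775 and 0.2), and its MG132 call without DMSO replicate 2 of the 2-cell stage (0.0874). The maternal members were lower in all 3, with a log2 fold change of Obox1 between -6.63 and -6.12 and of Obox5 between -6.32 and -5.64. In these comparisons, which share the DMSO 2-cell libraries, 5 members were called under aphidicolin, where 38.7% of all genes were, and 4 each under cycloheximide and MG132, where 30.1% and 33.5% were. The 4 calls under cycloheximide fell to 2 without cycloheximide replicate 2.

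The summed 2-cell markers were also higher in these 4-cell embryos, while a wider list of 2-cell genes moved both ways. The 6 markers of 2-cell embryos summed to 273 and 672 CPM under cycloheximide and 172 and 148 CPM under MG132, against 80.5 and 33.6 CPM with DMSO, and none of the 6 was at 0. Zfp352, a marker of 2-cell embryos, rose by 3.75 ± 0.83 under cycloheximide (edgeR adjusted p = 0.0158). Of 53 tested regulators of genome activation and 2-cell genes, 17 rose and 12 fell under cycloheximide, where 19.0% of all genes were called. Their median log2 fold change was 0.63, against 0.44 over all genes. With MG132, 6 rose and 4 fell (0.85 against 0.00), where 7.38% were called. The 39 Obox4 pseudogene rows summed to 3.69 and 8.73 CPM under cycloheximide, against 9.22 and 7.85 CPM with DMSO. With MG132 they summed to 12.7 and 16.4 CPM. The 8 Obox3 pseudogene rows summed to 106 and 166 CPM under cycloheximide and 104 and 195 CPM under MG132, against 36.1 and 30.1 CPM with DMSO. Obox8, a coding member of the wider family, stood at 682 and 663 CPM with DMSO, 190 and 215 CPM under MG132 and 2.39 and 9.54 CPM under cycloheximide. The part of these genes in the results for Obox3 and Obox6 was not tested.

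**Figure D5:**
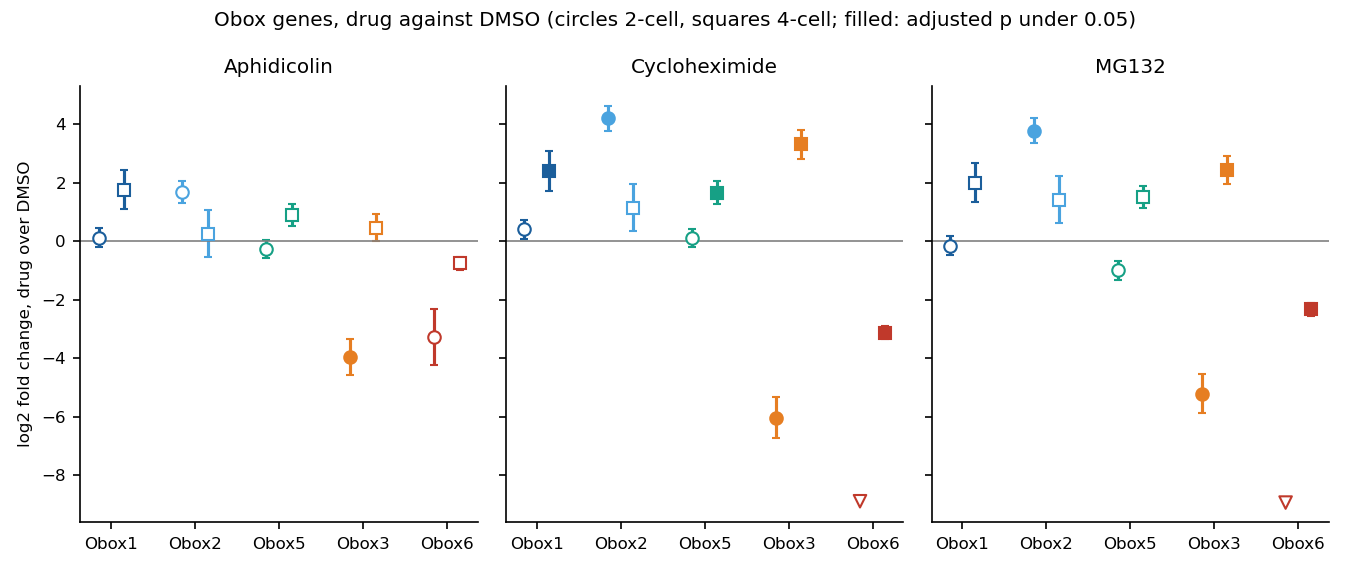
Log2 fold change of each member against DMSO embryos of the same stage, with its SE, under aphidicolin, cycloheximide and MG132. Circles are 2-cell and squares 4-cell embryos, filled where the edgeR adjusted p was under 0.05, and open triangles mark Obox6 in 2-cell embryos under cycloheximide and MG132, where 0 counts allow only the limits of at least 474-fold and 489-fold lower. Obox3 lies below 0 at the 2-cell stage and above 0 at the 4-cell stage under cycloheximide (-6.03 and 3.31) and MG132 (-5.21 and 2.42).

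The change of sign of Obox3 was larger than the spread between libraries. The cycloheximide effect at the 4-cell stage minus that at the 2-cell stage was 9.38 ± 0.95 on the log2 scale (edgeR adjusted p = 1.08e-05), and the same difference for MG132 was 7.62 ± 0.91 (0.000178). For aphidicolin it was 4.32 ± 0.85 with an adjusted p of 0.0902. Among the maternal members the cycloheximide difference was -2.98 ± 0.92 for Obox2 (0.0308), 1.60 ± 0.52 for Obox5 (0.0371) and 2.05 ± 0.74 for Obox1 (0.0588). The calls of Obox2 and Obox5 were each lost with 6 of the 8 libraries left out in turn, at an adjusted p between 0.0656 and 0.188 for Obox2 and between 0.0598 and 0.11 for Obox5. The MG132 difference was 2.48 ± 0.52 for Obox5 (0.00569), 2.12 ± 0.74 for Obox1 (0.0761) and -2.41 ± 0.92 for Obox2 (0.102). Obox6 passed this test for both drugs, and its fitted difference depends on groups at 0 counts, so it is no measure of size. In total 4 members passed for cycloheximide, where 20.9% of all genes did, 3 for MG132, where 11.2% did, and 0 for aphidicolin in edgeR's test, where 0.0% did. For aphidicolin 3 members had an unadjusted p under 0.05 (Obox1, Obox3 and Obox6), and DESeq2 called 1. The cycloheximide count fell to 2 without DMSO replicate 2 or cycloheximide replicate 1 of the 2-cell stage, and without cycloheximide replicate 2 of the 4-cell stage.

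In AB2.2 cells Obox6 was the only member above 1 count. It held 21 and 21 counts with DMSO (0.520 and 0.507 CPM), 9 and 12 with cycloheximide (0.226 and 0.287 CPM) and 27 and 28 with MG132 (0.651 and 0.667 CPM). The cycloheximide libraries lay below and the MG132 libraries above both DMSO libraries. Under cycloheximide Obox6 was at -1.05 ± 0.30 (edgeR adjusted p = 0.038), where 27.0% of all genes were called, and this call was lost with DESeq2, with no low-count filter and with any 1 library left out, and Obox6 did not pass a filter of 5 CPM. Under MG132 0 members were called where 3.24% of all genes were, 0 had an unadjusted p under 0.05 and DESeq2 called 0, with Obox6 at 0.33 (95% interval -0.17 to 0.83).

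The genes whose profile over the 16 groups was most like each member differed from member to member, also among the maternal members. Likeness was Pearson's r of group means of log2(CPM + 1), compared over 13410 genes with at least 5 CPM in some group. For Obox5 the first was Btg4, a factor of maternal mRNA decay, at 0.997, followed by Rfpl4, Arhgap20os, Tcl1b1 and Tcl1b3. For Obox1 it was Gckr at 0.994, followed by Bcl2l10, Ggct, Spin1 and Srgn. For Obox2 it was Fbxw22 at 0.988, followed by Ccdc69, Unc50, H1foo and St3gal6. For Obox3 it was the pseudogene Obox3-ps1 at 0.971, which holds 0.4% of its 50-base stretches, then Zfp352, Lrrc37a, Gtpbp4-ps3 and BB287469. For Obox6 it was Trim43b at 0.998, followed by Trim43a, Rab20, Alppl2 and Rab19. The 5 lists had no gene in common.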

How the data were processed

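Each of the 32 deposited files holds raw counts per gene (55335 rows) and per repeat subfamily (1153 rows). Per the submitters' processing notes, the authors used cutadapt 1.16, STAR and mm10 to make these deposited counts. For the counter, its annotation, its strand setting and its handling of reads with several matches: not given in the sources used here. Of the gene rows, 55154 matched a symbol in GENCODE vM21. The counts were tested as deposited with edgeR 4.0.16 (quasi-likelihood F-test, filterByExpr with at least 10 counts per library scaled and 15 in total, TMM over genes and repeats) in R 4.3.3. P-values were adjusted over all genes tested (Benjamini-Hochberg) and called under 0.05. Groups of 1 fit shared an estimate of the spread. Comparisons within a stage used a fit of that stage, and comparisons between stages used fits that pooled groups of several stages. SE is the absolute log2 fold change divided by the square root of F, and intervals cover 95%. Levels are CPM scaled by TMM over all libraries, and per kb of GENCODE exon union. Where a group held 0 counts, a limit of 3 counts over the group was used. Alternatives were DESeq2 1.42.0, its size factors, gene rows only, other filters, other samples in the fit, the replicate number as a block, and each library left out. A fit with a library left out leaves 1 library in that group, so the spread comes from the other groups of the fit. The test was checked on simulated counts. The text names all 5 members, Obox7, Obox8 and the pseudogene rows as sums, the 5 genes most like each member, and a few genes of the lists. Members and lists were chosen with earlier results of these data known. Promoters are RefSeq's and transcripts GENCODE's.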

Additional observations from a re-analysis of the deposited data

Results flagged for a closer look

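Drug effects that differed between the 2-cell and 4-cell stages, by a test of the difference itself, were found for 4 members with cycloheximide and 3 with MG132. Each value is the 4-cell effect minus the 2-cell effect on the log2 scale, from edgeR's quasi-likelihood test. For cycloheximide it was 9.38 for Obox3, -2.98 for Obox2 and 1.60 for Obox5. Those of Obox2 and Obox5 were each lost with 6 of the 8 libraries left out in turn, and that of Obox3 held with each. For MG132 it was 7.62 for Obox3 and 2.48 for Obox5. Obox6 gave 9.46 for cycloheximide and 10.29 for MG132. In both cases the 2-cell drug libraries held 0 counts of Obox6, so these 2 values depend on the fit and give no size. Obox6 was lower than with DMSO at both stages.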

How the results depend on the processing

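Over all alternatives, 1415 of 1592 values of members kept their direction and their side of the threshold, 91 fell out of the calls (76 with a library left out), 60 came into them and 26 changed sign. Of the 77 called values, 48 kept their call under every alternative run and 0 changed sign. Of the 31 comparisons, 11 kept their count of called members within 1.5 times under every alternative.

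By tool and filter, DESeq2 called 3 members for 2-cell aphidicolin against DMSO (1 in edgeR), 2 for 12-month against DMSO 2-cell embryos (1), 4 for 4-cell MG132 against DMSO (2), 1 for 4-cell aphidicolin against DMSO (0), 1 for 4-cell cycloheximide against MG132 (0), 2 for 4-cell aphidicolin against MG132 (1) and 0 for AB2.2 cycloheximide (1). It called 1 for the stage difference of aphidicolin (0) and 2 for the age difference (0). No filter gave the same counts except 3 for the stage difference of aphidicolin, and it gave 5 for the stage difference of MG132 (3). A filter of 5 CPM gave 1 for 4-cell cycloheximide against MG132, 2 for 4-cell aphidicolin against MG132 and 0 for AB2.2 cycloheximide, where Obox6 did not pass it. DESeq2 size factors, and library sizes from gene rows only, also gave 1 and 2 for the first 2 of these, and gene rows only gave 0 for 2-cell cycloheximide against MG132. A fit on the compared groups alone gave 0 for 2-cell aphidicolin against DMSO, 0 for 2-cell cycloheximide against MG132, 1 for 2-cell aphidicolin against cycloheximide (3), 0 for aphidicolin against MG132 at the 2-cell (2) and 4-cell (1) stages, 2 for 12-month against DMSO 2-cell embryos, 3 and 2 for aphidicolin and cycloheximide 2-cell embryos against MII oocytes (5 and 4), and 1 for the age difference. The zygotic share in DMSO 4-cell embryos was 95.3% as counts without length and 96.8% per kb. The cause of these changes was not tested.

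With the replicate number as a block, the call of a member changed in 6 of 138 values. The block gave 1 member for 4-cell cycloheximide against MG132 (Obox6, adjusted p = 0.0474), 2 for 4-cell aphidicolin against MG132 (Obox3, 0.0456) and 0 for AB2.2 cycloheximide (Obox6, 0.0574). It also moved Obox1 in H3.3K4M oocytes to 0.0555, Obox5 in 4-cell MG132 embryos to 0.047 and Obox5 in cycloheximide 2-cell embryos against MII oocytes to 0.0509, and it changed no other call of a member. The labels do not say that a number marks a shared batch. Same-numbered libraries deviated together among the 2-cell drug and vehicle groups (correlation 0.163 to 0.371 over 6 pairs of groups) and hardly in the 4-cell groups (-0.02 to 0.102). In P14 and MII oocytes the correlation was -0.41 and -0.134, and the crossed pairing, added after seeing the data, gave 5727 genes called against 3444 without a block for P14, with all 3 maternal members, and 124 against 121 for MII, with 0 members.

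With 1 library left out, the number of members called lay between 0 and 2 for 12-month against 8-week MII oocytes, 0 and 2 for 2-cell aphidicolin against DMSO, 0 and 1 for 2-cell cycloheximide against MG132, 1 and 3 for 2-cell aphidicolin against cycloheximide and 0 and 1 against MG132. It lay between 2 and 3 for 4-cell cycloheximide and 1 and 4 for 4-cell MG132 against DMSO, 2 and 4 for aphidicolin, 0 and 2 for cycloheximide and 2 and 4 for MG132 2-cell embryos against MII oocytes, and 2 and 3 for 4-cell cycloheximide against DMSO 2-cell embryos. It was 0 for AB2.2 cycloheximide, 0 to 2 for the stage difference of aphidicolin, 2 to 3 for that of cycloheximide and 0 to 1 for the age difference.

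Changes of sign were found only among values that passed no test. With 1 library left out, the log2 fold change of Obox2 ranged from -0.04 to 0.12 in 12-month against 8-week MII oocytes, from -0.64 to 1.08 in 4-cell aphidicolin and -0.05 to 2.24 in 4-cell MG132 against DMSO, and from -1.01 to 1.15 in 4-cell cycloheximide and -2.04 to 0.30 in 4-cell aphidicolin against MG132. That of Obox1 ranged from -0.10 to 0.38 for aphidicolin, -0.11 to 0.82 for cycloheximide and -0.35 to 0.13 for MG132 against DMSO at the 2-cell stage. It ranged from -0.70 to 0.23 for 2-cell aphidicolin against cycloheximide, -0.35 to 1.85 for 4-cell cycloheximide and -0.96 to 1.25 for 4-cell aphidicolin against MG132. That of Obox5 ranged from -0.30 to 0.05 from 12-month MII oocytes to 2-cell embryos, -0.55 to 0.00 for 2-cell aphidicolin, -0.11 to 0.40 for 2-cell cycloheximide and -0.30 to 0.67 for 4-cell cycloheximide against MG132. That of Obox3 ranged from -0.68 to 0.47 in 4-cell cycloheximide against DMSO 2-cell embryos. Under a filter of 5 CPM Obox3 was at 0.07 there and without a filter at 0.01. Under the filter of 5 CPM Obox5 was at 0.02 from 12-month MII oocytes to 2-cell embryos, as with gene rows only (0.02), and at -0.02 for 2-cell cycloheximide.

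The background of calls over all genes also moved with the alternatives. Of 357 counts under alternatives, 129 differed from the reported count by over 1.5 times. For 2-cell aphidicolin against DMSO, 45 genes were called, 521 with DESeq2, 615 without a filter and 0 in a fit on the 2 groups alone. For 4-cell aphidicolin 0 were called, 224 with DESeq2 and 347 without a filter. For 12-month against 8-week MII oocytes 121 were called, 1017 with DESeq2. Depth limited the folds against a group with 0 counts of a member, which are bounds from 3 counts over that group.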
